A study of Mus musculus with 24 samples.

Results

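Polycomb group proteins keep developmental genes silent through modified histones, and this report of RNA levels covers 10 genes that encode them: Ezh1, Ezh2, Eed, Suz12 and Jarid2 of Polycomb repressive complex 2 (PRC2), and Bmi1, Cbx2, Cbx6, Cbx7 and Cbx8 of Polycomb repressive complex 1 (PRC1). They were chosen by name and are 10 of the 21756 gene symbols that stand on 1 line in each of 2 RNAseq tables. The first is of mouse embryonic stem cells (ESCs), the second of neural progenitors made from them (NPCs). In PRC2, EZH2 or its paralog EZH1 methylates a lysine in the tail of histone H3, a reaction that needs the scaffold proteins EED and SUZ12. In PRC1, RING1 or RNF2 attaches ubiquitin to histone H2A together with a PCGF partner such as BMI1, and in canonical PRC1 a CBX protein binds the histone mark left by PRC2. Exchange of CBX subunits when pluripotent cells differentiate is a textbook feature of this system.

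The ESCs were E14 cells grown without feeder cells or serum, in 2i medium with leukemia inhibitory factor and inhibitors of MEK and GSK3β. The NPCs were derived from E14 ESCs as floating embryoid bodies in medium with fetal calf serum, were taken at day 8 of differentiation, and had received 2 µM retinoic acid for the last 4 days; their label is Pax6-positive radial glia. Poly(A) RNA was sequenced from 3 replicates of each cell type. Domains in contact with the nucleolus (NADs) were mapped by Nucleolar-DamID in other cells than those of the RNA. These were transgenic E14 lines, as ESCs and as NPCs. In them, doxycycline and Shield1 induced the methylase fusion H2B-Dam-NoLS, sent to the nucleolus, or H2B-Dam as its reference. ESCs and NPCs differ in cell type, medium, serum and retinoic acid at once, and these cannot be told apart.

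The tables give RPKM, reads per kilobase scaled to library size. Multiplied by the length of the whole gene with its introns, the values fell on steps of 1 read, to within 0.05 reads, in 94.9% to 95.2% of the genes with fewer than 1000 reads. The 10 Polycomb genes came out as whole reads in all 6 samples. By these steps, the ESC libraries hold 34051992, 33732018 and 30779728 reads in the order of their replicate numbers, and the NPC libraries 30151252, 27262786 and 32297555. Because gene length with introns was from 1.30 to 38.1 times the mRNA length among the 10 genes, levels of different genes are set side by side or summed below as RPKM computed with mRNA length, unless the deposited scale is named.

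The library of ESC replicate 3 stood apart. Its RPKM values summed to 138483, against 102848 and 104639 in ESC replicates 1 and 2 and 84297 to 85521 in the NPC libraries. Across 7078 genes, its log2 deviation from the other ESC libraries had a Spearman correlation of -0.705 with transcript length, a description over genes that are not independent, while the NPC libraries had -0.10 to 0.094. ESC replicates 1 and 2 had 0.699 and 0.662, since each was set against a mean that includes replicate 3; between themselves they had a Pearson correlation of 0.998, and replicate 3 had 0.960 and 0.963 with them. Genes with transcripts above 6000 bases had a median deviation of -0.56 in it, and genes with transcripts below 1500 bases had 0.62. Long transcripts are thus low in this library, and log2 differences are given with and without it.

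The labels of the cell types were checked against marker genes. All 8 ESC markers were called lower in NPCs, beside 34.5% of all 7150 genes tested. Their summed level per kilobase of mRNA was 4077, 4061 and 7492 in ESCs and 5.69, 4.70 and 4.87 in NPCs. Dppa5a was the most abundant of them in ESCs and Klf4 in NPCs. Pou5f1, the transcription factor that maintains pluripotency, had 130, 136 and 202 RPKM in ESCs and 0.056, 0.039 and 0.065 in NPCs. The 8 neural progenitor markers summed to 167, 175 and 206 in ESCs and 314, 331 and 352 in NPCs, with Vim the most abundant in both. Nes, an intermediate filament gene of neural progenitors, had 3.79, 3.25 and 3.33 RPKM in ESCs and 29.8, 32.7 and 29.4 in NPCs, and Pax6 went from 0.013, 0.017 and 0.0046 to 1.55, 1.42 and 1.67. The 8 mesoderm and endoderm markers summed to 7.47, 8.09 and 6.04 in ESCs and 198, 206 and 207 in NPCs, led in NPCs by Gata4, with T, Mixl1 and Afp below 0.1 RPKM there. With no filter, 5 of them were called higher and 3, T, Eomes and Mixl1, lower in NPCs. The 8 neuron markers summed to 156, 161 and 211 in ESCs and to 77.6, 64.9 and 73.0 in NPCs, led by Stmn2 in ESCs and Tubb3 in NPCs, but only 2 of the 8 were called lower and 6 were called higher in NPCs when no filter was set, beside 22.9% and 39.5% of 18217 genes. The 4 neural crest markers summed to 12.3, 12.9 and 10.5 in ESCs and to 45.5, 39.1 and 37.7 in NPCs, led by Foxd3 in ESCs and Ets1 in NPCs, with 2 called higher and 2 lower when no filter was set. On the deposited scale this sum goes the other way, from 8.28, 8.77 and 7.62 to 2.31, 2.09 and 2.03. The part of other cell types in the Polycomb values was not tested, and in these bulk samples fewer cells of a type and less RNA per cell cannot be told apart.

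Of the 10 Polycomb genes, 3 rose from ESCs to NPCs (Bmi1, Cbx2, Cbx8), 4 fell (Eed, Suz12, Cbx6, Cbx7) and 3 were not called (Ezh1, Ezh2, Jarid2), by limma on log2(RPKM + 1) at a Benjamini-Hochberg adjusted p below 0.05. Of all 7150 genes tested, 33.3% were called higher and 34.5% lower in NPCs, so the count of Polycomb genes called is close to that of genes in general. The median log2 difference of the 10 genes was -0.03, against -0.04 over all genes tested. Without ESC replicate 3, 3 genes rose and 5 fell, Ezh2 being the addition, beside 40.7% and 46.4% of all genes. All 10 had a mean of at least 1 RPKM over the 6 samples, the filter used, but Cbx8 passed through its NPC values and Cbx7 through its ESC values.

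**Figure D1:**
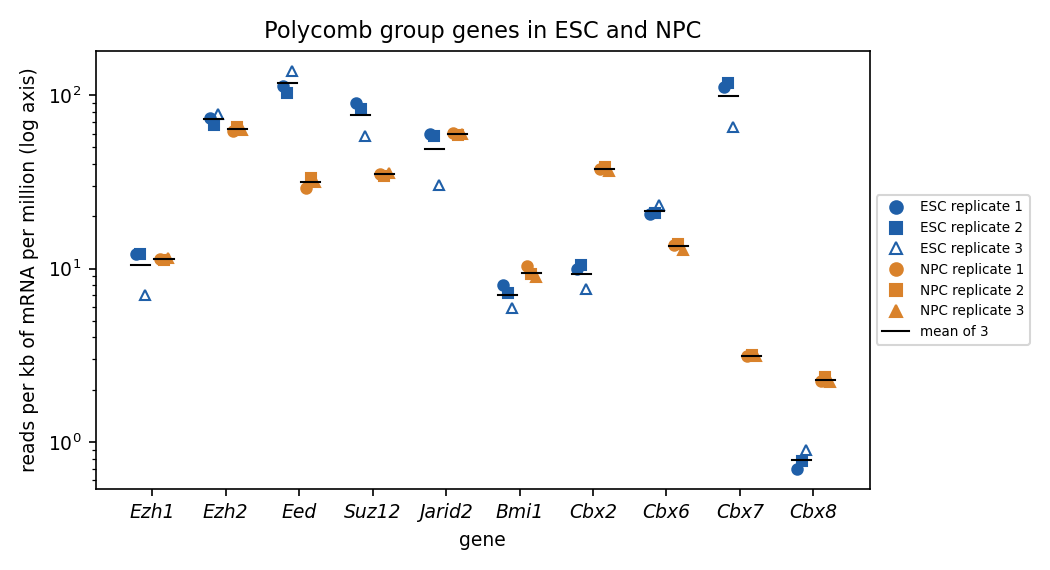
RPKM computed with mRNA length (log axis) of the 10 Polycomb genes in each of the 3 ESC (blue) and 3 NPC (orange) samples, with the mean of 3 as a black line and ESC replicate 3 as an open triangle. Cbx7 drops from a mean of 98.5 to 3.14, Cbx2 goes from 9.36 to 37.6, and ESC replicate 3 lies low for Suz12, Jarid2, Cbx7 and Ezh1.

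The catalytic subunits of PRC2 moved little. Ezh2 had 3.16, 2.88 and 3.32 RPKM in ESCs, in the order of the replicate numbers kept throughout, and 2.66, 2.78 and 2.70 in NPCs. The ESC values lay above the NPC values without overlap, but by a small margin. The log2 difference was -0.15 (SE 0.07, limma adjusted p = 0.111), and without ESC replicate 3 it was -0.11 (SE 0.04, adjusted p = 0.0456), a fold of 0.90 in mean RPKM. Ezh1, which forms a PRC2 of its own and is best known from non-dividing cells, had 1.44, 1.44 and 0.839 RPKM in ESCs and 1.34, 1.32 and 1.37 in NPCs. Replicate 3 alone set the ESC spread of Ezh1, and the groups overlapped. Its log2 difference was 0.08 (95% interval -0.21 to 0.36, adjusted p = 0.584) with this library and -0.06 (-0.13 to 0.01, adjusted p = 0.103) without it, so its sign is not settled by these samples.

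On the mRNA scale, Ezh2 was the more abundant paralog in every sample. Ezh1 made up 14.1%, 15.3% and 8.34% of the summed Ezh1 and Ezh2 level in ESCs and 15.3%, 14.6% and 15.4% in NPCs. Without ESC replicate 3, the mean share was 14.7% in ESCs and 15.1% ± 0.44 (SD, n = 3) in NPCs, a gap no larger than the spread between ESC replicates 1 and 2. There was thus no exchange of Ezh2 for Ezh1 that these libraries could show.

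The scaffold subunits fell. Eed, the WD40 protein that reads the mark PRC2 leaves, had 8.88, 8.07 and 10.9 RPKM in ESCs and 2.29, 2.62 and 2.49 in NPCs. Every ESC sample was at least 3 times every NPC sample. The log2 difference was -1.56 (SE 0.12, adjusted p = 4.59e-05), and -1.45 without ESC replicate 3 (adjusted p = 2.81e-07). Suz12, which holds PRC2 together and carries its accessory subunits, had 9.51, 8.80 and 6.15 RPKM in ESCs and 3.70, 3.63 and 3.76 in NPCs. The groups did not overlap, although ESC replicate 3 lay nearer to the NPC level. Its log2 difference was -0.94 (SE 0.15, adjusted p = 0.00176) with this library and -1.11 (SE 0.05, adjusted p = 3.18e-07) without it.

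Jarid2, a DNA-binding accessory subunit that helps to bring PRC2 to its targets in ESCs, had 1.56, 1.52 and 0.794 RPKM in ESCs and 1.58, 1.54 and 1.58 in NPCs. Only ESC replicate 3 differed from the other samples. The log2 difference was 0.18 (95% interval -0.16 to 0.52, adjusted p = 0.290), and without ESC replicate 3 it was 0.01 (-0.06 to 0.09, adjusted p = 0.690). In mean level per kilobase of mRNA, the order of the PRC2 genes in ESCs was Eed (118 ± 18.5), Suz12 (77.1 ± 16.7), Ezh2 (73.1 ± 5.22), Jarid2 (49.2 ± 16.5) and Ezh1 (10.5 ± 2.94; SD, n = 3). Suz12 was above Ezh2 in ESC replicates 1 and 2 (89.9 against 74.1 and 83.2 against 67.4) and below it in replicate 3 (58.2 against 77.7). In NPCs the order was Ezh2 (63.7 ± 1.43), Jarid2 (59.6 ± 0.865), Suz12 (34.9 ± 0.601), Eed (31.4 ± 2.08) and Ezh1 (11.3 ± 0.200). The catalytic Ezh2 thus stood below Eed in ESCs and above it in NPCs. This NPC order depends on the scale. On the deposited scale the means in NPCs were Suz12 3.69, Ezh2 2.72, Eed 2.47, Jarid2 1.57 and Ezh1 1.34.

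Among the 9 other PRC2 partners, 6 passed the filter, of which 1 rose and 2 fell, beside 33.3% and 34.5% of all genes tested, with a median log2 difference of -0.21. Without ESC replicate 3, 2 rose and 4 fell, beside 40.7% and 46.4%. Epop, a PRC2 partner that binds elongin, had 73.6, 75.6 and 143 RPKM in ESCs and 6.73, 9.37 and 9.48 in NPCs, and its log2 difference was -3.31 (adjusted p = 8.91e-05, and -3.00 without ESC replicate 3). Mtf2, a Polycomb-like protein that binds CpG-rich DNA, had 9.23, 8.13 and 6.00 RPKM in ESCs and 4.86, 5.11 and 5.003 in NPCs, a log2 difference of -0.53 (adjusted p = 0.0176, and -0.69 without ESC replicate 3). Phf1, a second Polycomb-like gene, had 3.22, 3.54 and 3.52 RPKM in ESCs and 3.91, 4.77 and 4.22 in NPCs, with a log2 difference of 0.26 (adjusted p = 0.0386, and 0.27 without ESC replicate 3). The calls of Phf1 and Mtf2 were lost under several of the alternatives.

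The CBX genes of PRC1 code for the chromodomain subunits, and among the 10 genes Cbx7 had the largest fall and Cbx2 the largest rise. Cbx7, the main CBX gene known from ESCs, had 5.85, 6.18 and 3.46 RPKM in ESCs and 0.165, 0.165 and 0.164 in NPCs. These values rest on 11017, 11537 and 5889 reads in ESCs and on 275, 249 and 293 in NPCs, for which exact Poisson intervals run from 219 to 328.5 reads and cover counting error only. Each NPC sample was far below each ESC sample, and the mean ESC level was 31.4 times the NPC level. The log2 difference was -2.37 (SE 0.18, adjusted p = 4.85e-05), and -2.59 (SE 0.03, adjusted p = 1.52e-09) without ESC replicate 3. The pseudocount of 1 understates this change, since NPC values lie below it: on the whole reads, limma with voom gave -4.92 (SE 0.24, and -5.19 without ESC replicate 3).

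Cbx2, whose product compacts nucleosomes, had 4.56, 4.82 and 3.49 RPKM in ESCs and 17.3, 17.7 and 16.7 in NPCs. All NPC samples were higher than all ESC samples, by 4.02 times in the mean. Its log2 difference was 1.79 (SE 0.12, adjusted p = 2.38e-05) and 1.68 (SE 0.05, adjusted p = 4.32e-08) without ESC replicate 3. Cbx8, the lowest of the 10 genes per kilobase of mRNA, had 0.535, 0.591 and 0.690 RPKM in ESCs and 1.72, 1.82 and 1.69 in NPCs. The values stand for 85, 93 and 99 reads in ESCs and 242, 231 and 255 in NPCs. The exact Poisson intervals of the groups, up to 120.5 reads in ESCs and from 202 in NPCs, do not meet. These intervals cover counting error only, on reads not scaled to library size. The mean of Cbx8 was 2.88 times higher in NPCs, with a log2 difference of 0.77 (SE 0.06, limma adjusted p = 3.60e-05, and 0.81 without ESC replicate 3). The pseudocount of 1 understates this change too, since the ESC values of Cbx8 lie below it. On the whole reads, without a filter on RPKM, limma with voom gave 1.53 (SE 0.15, and 1.62 without ESC replicate 3). Cbx6, of which less is known, had 11.1, 11.2 and 12.5 RPKM in ESCs and 7.31, 7.50 and 6.92 in NPCs. The groups were apart, and the log2 difference was -0.61 (SE 0.09, adjusted p = 9.80e-04, and -0.56 without ESC replicate 3).

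Summed over Cbx2, Cbx6, Cbx7 and Cbx8, the level per kilobase of mRNA was 143, 150 and 97.8 in ESCs and 56.8, 58.1 and 54.6 in NPCs, so the summed level was smaller in NPCs on this scale. On the deposited scale it was larger in NPCs, with 22.1, 22.8 and 20.1 in ESCs and 26.5, 27.2 and 25.5 in NPCs. Cbx7 made up 78.1%, 78.6% and 67.5% of this sum in ESCs and 5.54%, 5.42% and 5.73% in NPCs. Cbx2 made up 6.96%, 7.01% and 7.80% in ESCs and 66.6%, 66.5% and 66.7% in NPCs. The leading transcript of these 4 was thus Cbx7 in every ESC sample and Cbx2 in every NPC sample. Cbx6 was the next in both, with 14.5%, 13.9% and 23.8% in ESCs and 23.9%, 24.0% and 23.5% in NPCs, a larger share in NPCs than in ESC replicates 1 and 2 and a similar one to ESC replicate 3. Cbx8 had a mean share of 0.64% in ESCs and 4.02% in NPCs. On the deposited scale, which divides by the whole gene, the long gene Cbx7 counts for less, and Cbx6 leads in ESCs with 50.4%, 49.1% and 62.1%.

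**Figure D2:**
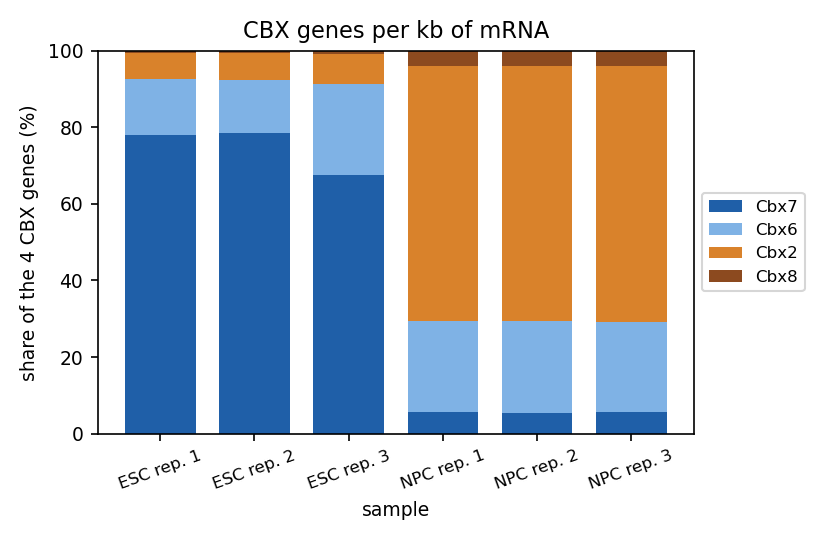
Share of each of 4 CBX genes (percent, stacked to 100) in their summed RPKM computed with mRNA length, for each ESC and NPC sample. Cbx7 holds 67.5% to 78.6% in the ESC samples and 5.42% to 5.73% in the NPC samples, where Cbx2 holds 66.5% to 66.7%.

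Bmi1 (Pcgf4), the PCGF partner of canonical PRC1 best known from neural and blood stem cells, had 3.02, 2.71 and 2.21 RPKM in ESCs and 3.84, 3.47 and 3.32 in NPCs. The groups were apart, with a gap smaller than the range within ESCs. Its log2 difference of 0.32 (SE 0.10, adjusted p = 0.0316; 0.23 and 0.00832 without ESC replicate 3) was the weakest call among the 7, and it missed the threshold without ESC replicate 2 or without any single NPC replicate. Pcgf2, which takes the place of Bmi1 in the same complexes, had 9.22, 9.09 and 7.65 RPKM in ESCs and 8.74, 9.42 and 9.53 in NPCs and was not called (log2 difference 0.09, adjusted p = 0.460, and 0.01 without ESC replicate 3). Per kilobase of mRNA, Bmi1 made up 14.1%, 13.04% and 12.7% of the summed Bmi1 and Pcgf2 level in ESCs and 18.1%, 15.6% and 14.9% in NPCs. Pcgf2 was the major partner in all 6 samples.

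The other PCGF genes, which place PRC1 in variant complexes, went both ways. Pcgf6, a partner known from ESCs and germ cells, had 4.84, 4.77 and 4.90 RPKM in ESCs and 2.28, 2.68 and 2.47 in NPCs (log2 difference -0.75, adjusted p = 1.75e-04, and -0.74 without ESC replicate 3), and Pcgf1 had 7.07, 6.93 and 11.1 in ESCs and 4.09, 4.299 and 4.20 in NPCs (-0.82, adjusted p = 0.00571, and -0.62 without it). Pcgf3 went the other way, with 1.51, 1.40 and 0.871 RPKM in ESCs and 3.23, 2.76 and 2.89 in NPCs (0.82, adjusted p = 0.00136, and 0.69 without ESC replicate 3). Pcgf5 lay below the filter, since its gene is long, with 187, 183 and 188 reads in ESCs and 294, 226 and 343 in NPCs; on reads it was higher in NPCs by 0.75 on the log2 scale (voom, adjusted p = 0.00288, and 0.80 without ESC replicate 3).

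The catalytic pair of PRC1 differed between its members. Rnf2, the main ubiquitin ligase of the complex, had 3.78, 3.44 and 3.05 RPKM in ESCs and 3.64, 3.27 and 3.39 in NPCs, with overlapping groups and a log2 difference of 0.01 (95% interval -0.21 to 0.22, adjusted p = 0.952, and -0.06 without ESC replicate 3). Its paralog Ring1 had 2.42, 2.47 and 3.15 RPKM in ESCs and 6.43, 8.15 and 8.48 in NPCs, a log2 difference of 1.24 (adjusted p = 2.34e-04, and 1.33 without ESC replicate 3). Rnf2 still had the larger part of the pair per kilobase of mRNA, 91.7%, 90.8% and 87.3% in ESCs and 80.1%, 74.0% and 74.0% in NPCs. On the deposited scale Ring1 led in NPCs, where Rnf2 had 36.1%, 28.6% and 28.6%, and in ESC replicate 3, where Rnf2 had 49.2%.

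The polyhomeotic genes, whose products join PRC1 complexes through SAM domains, showed an exchange like that of the CBX genes. Phc1 had 15.0, 16.0 and 8.11 RPKM in ESCs and 5.66, 5.39 and 5.34 in NPCs (log2 difference -1.07, adjusted p = 0.00768, and -1.35 without ESC replicate 3). Phc2 had 0.303, 0.344 and 0.368 RPKM in ESCs and 2.04, 2.12 and 2.25 in NPCs (1.23, adjusted p = 2.26e-06, and 1.25 without ESC replicate 3), a rise of 6.32 times in the mean. Phc2 passed the filter through its NPC values, and voom on reads, which has no such filter on RPKM, gave 2.66 (adjusted p = 2.80e-06). Per kilobase of mRNA, Phc1 made up 84.3%, 84.9% and 79.5% of the summed level of Phc1, Phc2 and Phc3 in ESCs and 32.4%, 30.7% and 29.2% in NPCs, where Phc2 led with 55.0%, 57.1% and 58.0%. On the deposited scale Phc1 still led in NPCs, with 64.3%, 62.8% and 61.0%. Phc3 lay below the filter and had 0.677, 0.614 and 0.181 RPKM in ESCs and 1.10, 1.06 and 1.16 in NPCs.

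Over all 25 other PRC1 subunits, 16 passed the filter, of which 7 rose and 6 fell, beside 33.3% and 34.5% of all genes tested, with a median log2 difference of 0.05. The filter works on values per whole gene and so removes long genes. On whole reads, a scale chosen after seeing the data, all 25 could be tested: 14 rose and 6 fell, and the median was 0.98, beside 45.6% of 14293 genes called higher, 28.1% called lower and a median of 0.37 over all of them. Without ESC replicate 3 the reads gave 14 and 8, beside 51.2% and 36.8%. The same reads gave 3 rises and 4 falls among the 10 Polycomb genes, and 3 and 5 without ESC replicate 3. The steepest fall in the list was that of L3mbtl2, a subunit of the PCGF6 complex, from 6.59, 6.86 and 6.52 RPKM to 1.08, 1.13 and 1.13 (log2 difference -1.86, adjusted p = 1.04e-06, and -1.87 without ESC replicate 3). Usp7, a deubiquitinase found with several of these complexes, had 7.19, 6.87 and 4.34 RPKM in ESCs and 2.63, 2.61 and 2.60 in NPCs (-0.96, adjusted p = 0.00275, and -1.15 without ESC replicate 3).

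Enzymes that act against Polycomb marks were lists of their own. Of 13 genes of the PR-DUB deubiquitinase and the demethylases of the PRC2 mark, 9 passed the filter, 5 rose and 0 fell, beside 33.3% and 34.5% of all genes tested, with a median log2 difference of 0.41 against -0.04. This list depends on ESC replicate 3, in which the list summed to 158 per kilobase of mRNA, against 356 and 358 in the other ESC libraries. Without it, 5 rose and 3 fell, beside 40.7% and 46.4%, and the median was 0.29 against -0.06. Kdm6b, a demethylase of the PRC2 mark, had 5.89, 6.31 and 2.27 RPKM in ESCs and 15.5, 18.2 and 18.9 in NPCs, with a log2 difference of 1.75 (adjusted p = 0.00283) and of 1.38 (adjusted p = 2.54e-06) without ESC replicate 3. Its X-linked paralog Kdm6a lay below the filter, with 0.738, 0.738 and 0.301 RPKM in ESCs and 0.737, 0.696 and 0.757 in NPCs, and on reads its log2 difference was 0.42 (voom, 95% interval -0.43 to 1.27) with ESC replicate 3 and -0.02 (-0.14 to 0.10) without it. Ogt, a glycosyltransferase found with PR-DUB, had 8.97, 8.35 and 4.43 RPKM in ESCs and 18.4, 17.4 and 17.5 in NPCs (1.24, adjusted p = 0.00367, and 0.96 without ESC replicate 3), and Mbd6 had 10.1, 10.2 and 4.52 in ESCs and 17.1, 21.7 and 20.2 in NPCs (1.22, adjusted p = 0.00950, and 0.89 without ESC replicate 3).

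Of 8 histone methyltransferase genes and partners of the Trithorax group, the classic counterpart of Polycomb, 5 passed the filter, 2 rose and 0 fell, beside 33.3% and 34.5% of all genes tested, with a median log2 difference of 0.79 against -0.04. Without ESC replicate 3, 4 rose and 1 fell, beside 40.7% and 46.4%, and the median was 0.26 against -0.06. Kmt2a had 2.41, 2.33 and 0.606 RPKM in ESCs and 4.17, 4.04 and 4.07 in NPCs, and its log2 difference went from 0.95 (adjusted p = 0.0252) to 0.60 (adjusted p = 3.13e-06) when the library was left out. Setd1b went from 1.61, 1.72 and 0.626 to 3.53, 3.79 and 3.67 RPKM (1.05, adjusted p = 0.00370, and 0.81 without ESC replicate 3).

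Genes known as targets of Polycomb silencing in ESCs were read as a further list. Of the 24, 17 had a mean below 0.1 RPKM in ESCs and 6 in NPCs. With no filter, 16 of the 24 were called higher and 5 lower in NPCs, beside 39.5% and 22.9% of 18217 genes; the 9 that passed the filter mostly passed through their NPC values, so their 8 rises and 1 fall, beside 33.3% and 34.5% of all genes tested, follow in part from the filter. Hoxb1, a HOX gene that retinoic acid induces, had 2, 0 and 0 reads in ESCs and 816, 895 and 1106 in NPCs, and the endoderm factor gene Gata6 had 0.0053, 0.0054 and 0.0029 RPKM in ESCs and 6.30, 6.93 and 6.82 in NPCs. Cdkn2a, the cell cycle inhibitor locus that Polycomb represses in many dividing cells, went the other way, with 2.33, 2.48 and 4.76 RPKM in ESCs and 0.564, 0.587 and 0.572 in NPCs (-1.37, limma adjusted p = 0.00134, and -1.11 without ESC replicate 3). Cdkn2a passed the filter through its ESC values. Voom on reads, which has no such filter on RPKM, gave -2.39 (adjusted p = 2.34e-04, and -2.07 without ESC replicate 3). Hoxa9, Hand1 and Nkx2-2 were the 3 not called in either direction.

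Polycomb subunits are also known to follow proliferation, and the 9 cell cycle genes are given beside them: 1 rose and 6 fell, beside 33.3% and 34.5% of all genes tested, with 1 and 8 without ESC replicate 3, beside 40.7% and 46.4%. Their summed level per kilobase of mRNA was 1129, 1152 and 1000 in ESCs and 657, 696 and 672 in NPCs, with Pcna the most abundant in ESCs and Top2a in NPCs. Ccnb1 had 42.3, 40.6 and 39.5 RPKM in ESCs and 16.5, 17.2 and 17.1 in NPCs, while Mki67 had 15.1, 13.9 and 5.67 in ESCs and 25.1, 26.7 and 24.4 in NPCs. Their part in the fall of Eed and Suz12 was not tested.

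The positions of the genes, which played no part in their choice, separate the 4 CBX genes into 2 neighbourhoods. Cbx2 (11:119022962-119031270, GRCm38, + strand) and Cbx8 (11:119036305-119040969, - strand) lie within 18.0 kb of chromosome 11, and both rose. Cbx6 (15:79823896-79834688, - strand) and Cbx7 (15:79915807-79971119, - strand) lie within 147 kb of chromosome 15, and both fell. Neighbours of Cbx6 and Cbx7 were looked at by position after the values were seen. Apobec3, between Cbx6 and Cbx7, had 6.22, 6.23 and 6.20 RPKM in ESCs and 0.211, 0.209 and 0.183 in NPCs, and it shares 100 exon bases with Cbx7 on the opposite strand. The nearest 3 genes on the other side of Cbx6 were higher in NPCs. Sun2 went from 1.24, 1.29 and 0.969 RPKM to 4.78, 4.48 and 4.45, Dnal4 from 1.10, 1.24 and 0.632 to 1.72, 1.72 and 1.81, and Nptxr, below the filter, had 0.086, 0.126 and 0.071 in ESCs and 0.928, 0.894 and 1.01 in NPCs. Beyond Cbx7, Pdgfb, also below the filter, had 0.190, 0.168 and 0.177 RPKM in ESCs and 0.668, 0.677 and 0.642 in NPCs, Rpl3 was not called with all samples, and Syngr1 fell.

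The same genes were set against the NADs. In ESCs, 3 of the 10 genes overlapped a NAD by at least 1 base, beside 27.2% of 21259 genes with a position, and in NPCs 4 of the 10 did, beside 21.7%. The ESC count is close to the share of genes in general and the NPC count above it, and 10 genes are too few to tell these shares apart. The genes in NADs were Ezh2, Suz12 and Jarid2 in both cell types and Eed in NPCs. Ezh2 (6:47530139-47595341, - strand) lay wholly within a NAD of 401 kb with a score of 0.034 in ESCs and of 501 kb with a score of 0.073 in NPCs. Eed (7:89954654-89980983, - strand), 118 kb from the nearest NAD in ESCs, lay in a NAD of 1600 kb with a score of 0.041 in NPCs. Suz12 (11:79993106-80034123, + strand) reached into a NAD with its gene body but not with its start in both cell types, and Jarid2 (13:44729474-44921643, + strand) had its start in a NAD in NPCs. The lists hold 1 score per NAD with no replicate values, so no error can be given. None of the 4 CBX genes overlapped a NAD in either cell type; Cbx2 was 2169 kb from the nearest one in ESCs and 7523 kb in NPCs.

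Promoters were compared because Cbx2 and Cbx8 on chromosome 11 rose while Cbx6 and Cbx7 on chromosome 15 fell. Of the 10 genes, 9 had an entry among RefSeq promoters of GRCm38.p6, 300 bases around the start. Cbx2 had none, so Cbx8 alone stands for the pair on chromosome 11. The windows of the 9 genes held 17 (Eed) to 41 (Suz12) CpG dinucleotides, beside a median of 7 over 32851 promoters, of which 34.6% had 15 or more. The sequence AGGTCA, the core of retinoic acid receptor binding sites, was searched on both strands and was in no window of the 9 genes and in 16.3% of all windows, which says only that these letters are absent from these windows. Shown for Cbx7, which fell most, Cbx8, which rose, and Suz12, which fell, are the bases of the window before any annotated exon, 5′ to 3′ on the strand of the gene, with CpG dinucleotides in capitals. They lie at chr15:79932769-79932896 (Cbx7, - strand), chr11:119040970-119041163 (Cbx8, - strand) and chr11:79992856-79993105 (Suz12, + strand), and hold 6, 18 and 37 CpG dinucleotides. The Cbx7 stretch lies inside the annotated span of Cbx7, downstream of its longest transcript's start.
Cbx7: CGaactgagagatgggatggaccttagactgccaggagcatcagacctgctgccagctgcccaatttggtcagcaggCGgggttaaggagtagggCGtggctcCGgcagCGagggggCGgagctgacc
Cbx8: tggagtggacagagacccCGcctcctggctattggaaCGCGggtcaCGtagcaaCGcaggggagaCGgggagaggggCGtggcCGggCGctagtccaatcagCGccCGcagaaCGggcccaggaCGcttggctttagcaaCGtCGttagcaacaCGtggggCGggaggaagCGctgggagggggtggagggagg
Suz12: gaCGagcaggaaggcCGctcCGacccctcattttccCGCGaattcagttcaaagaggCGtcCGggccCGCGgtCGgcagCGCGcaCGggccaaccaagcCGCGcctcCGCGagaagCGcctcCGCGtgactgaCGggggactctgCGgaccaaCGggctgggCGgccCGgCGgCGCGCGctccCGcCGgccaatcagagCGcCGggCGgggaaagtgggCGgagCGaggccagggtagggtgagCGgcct
Jarid2 had 2 windows, with 24 and 23 CpG dinucleotides, and the other 8 genes 1 each. Suz12 and Eed, which both fell, had the most and the fewest. Cbx7 and Cbx6, which fell, had 33 and 31 in the whole window. Both lay above Cbx8 (24) and Bmi1 (23), which rose, while Eed (17) lay below them. So few genes do not show whether the count goes with the direction.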

How the data were processed

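RNAseq reads were aligned to mm10 with STAR by the authors, who deposited 1 table of RPKM per cell type. The steps of the RPKM values are those of reads divided by whole gene length (GENCODE M21), where gene length without introns had been assumed; reads were recovered from them, and levels between genes were recomputed with the mean length of RefSeq-linked mRNAs. The authors describe the counts behind the deposited RPKM as exon coverage. Strand use is not settled either, so reads shared by Cbx7 and Apobec3, on opposite strands, cannot be told apart. Cbx6 and Npcd share exon bases on the same strand, so strand would not separate their reads. NAD lists carry a score deposited by the authors, on their own scale, for domains common to 2 experiments (1769 in ESCs, 1447 in NPCs).

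NPCs were compared with ESCs by limma 3.58.1 in R 4.3.3 on log2(RPKM + 1) with a trended eBayes prior. The 7150 genes whose mean reached 1 RPKM were tested, with Benjamini-Hochberg adjustment over all of them at 0.05; 153 symbols on more than 1 line were left out. Voom was run on genes with a mean of at least 10 reads. The limma script was tested on simulated data. Other steps used Python 3.11.15. Named genes were the 10 members and genes drawn from a set list of other subunits whatever their values, the 3 largest called rises and falls of each list, and markers; Apobec3, Sun2, Dnal4, Nptxr, Pdgfb, Rpl3, Syngr1, Npcd, Hoxa9, Hand1 and Nkx2-2 were named after their values were seen. The sum over the 4 CBX members was chosen after the data were seen. The members and lists were chosen with earlier results of these data known.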

Additional observations from a re-analysis of the deposited data

How the results depend on the processing

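The alternatives were other pseudocounts, filters and scalings, a robust prior, a replicate block and leaving out each sample. Voom on whole reads, mRNA-length shares and alternatives that combine settings with ESC replicate 3 left out were added after the data were seen. Of 904 values for 58 named genes under the alternatives, 860 kept their direction and side of the threshold, 25 lost a call, 9 gained one and 10 reversed in sign. Eed, Suz12, Cbx2, Cbx6, Cbx7 and Cbx8 kept theirs throughout.

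The 2380 genes called higher and 2465 called lower became 7200 and 4166 with no filter, 590 and 1189 with a filter of 5 RPKM, 6519 and 4018 with voom on whole reads, and 7320 and 5262 with voom and ESC replicate 3 left out; the number of genes tested changed with each. With single samples left out, they ranged from 2010 to 2908 and from 1921 to 3315, the highest without ESC replicate 3, and the Polycomb genes from 2 to 3 higher and 4 to 5 lower. With the filter of 5 RPKM, 1 Polycomb gene was called higher, because fewer were tested. Quantile normalization with all samples also called Ezh2 lower, at -0.26 (limma adjusted p = 0.0187), and Ezh1 lower.

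Without ESC replicate 3, beside 40.7% of all genes higher and 46.4% lower, PRC2 partners had 2 rises and 4 falls. The Trithorax list had 4 and 1, and the PR-DUB and demethylase list 5 and 3. With voom, 45.6% of all genes were higher and 28.1% lower. Beside these shares, rises and falls numbered 4 and 2 in PRC2 partners and 14 and 6 in PRC1 subunits. They numbered 7 and 0 in the PR-DUB and demethylase list, 4 and 0 in the Trithorax list and 16 and 5 in Polycomb targets. Long and low genes could be tested with voom. Ezh1, at 0.08, reversed to -0.21 with quantile normalization (adjusted p = 0.0189, limma with Benjamini-Hochberg), -0.1 with voom and ESC replicate 3 left out, and with single samples left out ranged from -0.06 without ESC replicate 3 to 0.15 without ESC replicate 1. Uncalled Jarid2, at 0.18, was -0.08 with quantile normalization, and uncalled Rnf2, at 0.01, was -0.07 with it and with voom and ESC replicate 3 left out, -0.03 without NPC replicate 1, and between -0.06 without ESC replicate 3 and 0.06 without ESC replicate 1. Top2a, at 0.02 with all samples, ranged from -0.23 without ESC replicate 3 to 0.18 without ESC replicate 1, was 0.35 with quantile normalization and was -0.24 with voom and ESC replicate 3 left out; the cause was not tested.

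On the deposited scale the NPC minus ESC differences in share were -24.98 points for Rnf2, 45.6 for Cbx2, -26.42 for Cbx6 (reversed from 6.46), -22.98 for Cbx7 and 3.79 for Cbx8, because whole gene length weighs long genes down. By transcription start, 1 Polycomb gene was in an ESC NAD and 3 in NPC NADs, beside 23.7% and 19.0% of all genes. NADs scored no lower than their median held 3 in ESCs and 2 in NPCs, beside 16.5% and 12.4%.

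With a replicate block, 2238 genes were higher and 2309 lower, and 3 and 4 Polycomb genes. Replicate numbers do not pair the samples: deviations of equal numbers correlated at 0.113, -0.084 and 0.031, other pairs from -0.089 to 0.089. Of the named genes, 1 lost its call under the block.

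With 3 replicates per cell type, 1 of those of ESCs apart, small differences such as that of Ezh2 are not settled. The RNA says nothing of protein or of complexes on DNA. Cell type, medium and retinoic acid changed together, the cell mixture was not resolved, and the NAD scores have no replicates. Cbx8 rests on few reads in ESCs, which limits how closely its fold is known. Reads shared by overlapping genes cannot be assigned from these tables.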
